A study of Mus musculus with 2 samples.

Results

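The genes described here encode the components of the PI3K, AKT and mTOR pathway, from the insulin and IGF-1 receptors at the cell surface to the kinases, translation regulators and FOXO transcription factors at its end. They are a list of 34 genes given by symbol, with no threshold on their values, and 33 of the 34 were found in the count table, which lists 19294 genes. Pik3cd, a catalytic PI3K subunit best known from leukocytes, was not analysed here. The members were read in classes: 4 receptors and adaptors, 6 PI3K subunits, 3 genes of the AKT step, 3 of the TSC and RHEB step, 8 of mTORC1, 1 of mTORC2 and 9 outputs.

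Ligand binding to the insulin receptor or the IGF-1 receptor leads to phosphorylation of IRS adaptors, which recruit PI3K. The lipid made by PI3K brings PDK1 and AKT to the membrane, and active AKT phosphorylates GSK3, the FOXO factors and TSC2. The TSC complex restrains the small GTPase RHEB, RHEB activates mTORC1 on the lysosome where the RAG GTPases have placed it, and mTORC1 phosphorylates S6 kinases and the 4E-binding proteins that hold the cap-binding protein eIF4E. In the intestinal crypt the pathway is known for its part in growth, nutrient sensing and regeneration. Most of its regulation is by phosphorylation, which mRNA counts do not measure.

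The organoids came from intestinal crypts of Lgr5-EGFP-IRES-creERT2 mice, in which the Lgr5 locus drives EGFP and an inducible Cre, and were grown in Matrigel with EGF, Noggin and R-spondin. The control library and the library treated with dextran sulfate sodium (DSS), a sulfated polysaccharide that injures epithelium, share this genotype and medium and are both labelled day 4. The DSS dose used for sequencing, the number of mice and their age are not given in the sources used here. There is 1 library per condition, so no difference has a replicate check and no test was made. Differences are given as the log2 ratio of scaled counts, DSS over control, each beside an exact 95% interval for counting error alone.

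The libraries held 65493032 (control) and 59746968 (DSS) counts. All genes counted are the 17235 that reached 10 counts in the control or the DSS library. Their median log2 ratio was -0.06, and with total counts in place of TMM scaling it was -0.31, a shift of -0.26 that applies to each gene alike. The labels name the material intestinal stem cells. All 5 stem cell markers were lower in the DSS library, with a summed TMM-scaled level of 966 CPM (counts scaled to library size) in control and 191 in DSS. All 7 epithelial markers were counted, with sums of 4927 and 7920 CPM. They did not move together, with log2 ratios from -1.35 for Cdx2 to 3.99 for Krt20 and Epcam, Krt18 and Cdh1 near 0. Markers of other cells were low: the 3 of 7 immune markers with counts summed to 12.2 and 23.3 CPM, the 5 of 7 mesenchymal markers to 6.66 and 36.1 CPM, mostly Vim, and the 1 of 3 endothelial markers, Pecam1, had 0.168 and 1.01 CPM. The part of these shifts in the values below was not tested, and in bulk RNA fewer cells that express a gene cannot be told apart from less of its RNA per cell.

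Start sites of 6 members carry the palindrome CACGTG, an E-box that MYC family, TFE3 and circadian factors are known to bind, within the 250 bases before or 50 bases after a RefSeq start. These stretches are shown because they include those of both IRS adaptors, which had the highest log2 ratios of all members. Insr, at 0.76 beside 0.77 for Irs2, had no such stretch available to search. Each line gives 30 bases on the strand of the gene, 5′ to 3′, with the E-box in capitals (RefSeq, GRCm38.p6).
Irs1, chr1:82291537-82291566, minus strand: cagaggctccgtCACGTGttttgctcctct
Irs2, chr8:11008956-11008985, minus strand: gtaacgcagagtCACGTGttgttttgctct
Rheb, chr5:24842440-24842469, minus strand: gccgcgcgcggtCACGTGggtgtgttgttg
Rragc, chr4:123917309-123917338, plus strand: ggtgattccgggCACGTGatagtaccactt
Lamtor1, chr7:101905757-101905786, plus strand: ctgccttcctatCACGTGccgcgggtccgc
Eif4e, chr3:138527028-138527057, plus strand: ctcgccagcgacCACGTGatcacttttttt
Eif4e, chr3:138527192-138527221, plus strand: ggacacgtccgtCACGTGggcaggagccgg

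The E-box begins 115 bases before the start of Irs1, 44 before that of Irs2, 96 before that of Rheb, 112 before that of Rragc, 68 before that of Lamtor1, and 228 and 64 before that of Eif4e. By the GENCODE vM21 annotation the Irs1 and Rragc sites lie outside transcripts, the Irs2 site in an intron of 9530052E02Rik and the Lamtor1 site in an intron of Tomt, while the Rheb site falls in the UTR of Rheb-201 and the Eif4e sites in an intron of Eif4e-201 and the UTR of Eif4e-204. Windows were available for 29 members, 38 windows in all, and 6 of the 38 held the E-box, as did 7.15% of 32851 windows of all genes. Member windows were richer in G and C, with a median of 60.7% against 52.7%. The forkhead motif GTAAACA, sought on both strands like the E-box, was in the window of 1 member, Akt1, and in 3.65% of all windows, and no member window held both motifs. The 6 genes with an E-box went both ways, from a log2 ratio of -0.71 for Eif4e to 1.62 for Irs1. A match is a description of letters and shows no binding.

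Irs1 and Irs2 share the 10 letters GTCACGTGTT, which 25 of the 32851 windows hold (0.0761%), and they are the only member windows with it. Both motifs and these letters were chosen after the values were seen. The letters were taken from the Irs1 site itself, so Irs1 was certain to hold them. The 250 bases before each start are given for comparison, again with the E-box in capitals. They contain 72.4% G and C for Irs1 and 72.8% for Irs2.
Irs1, chr1:82291440-82291689, minus strand: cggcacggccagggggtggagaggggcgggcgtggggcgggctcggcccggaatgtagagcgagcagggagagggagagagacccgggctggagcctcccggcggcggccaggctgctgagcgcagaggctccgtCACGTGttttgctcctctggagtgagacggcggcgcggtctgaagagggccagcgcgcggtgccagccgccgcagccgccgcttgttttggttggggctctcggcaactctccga
Irs2, chr8:11008930-11009179, minus strand: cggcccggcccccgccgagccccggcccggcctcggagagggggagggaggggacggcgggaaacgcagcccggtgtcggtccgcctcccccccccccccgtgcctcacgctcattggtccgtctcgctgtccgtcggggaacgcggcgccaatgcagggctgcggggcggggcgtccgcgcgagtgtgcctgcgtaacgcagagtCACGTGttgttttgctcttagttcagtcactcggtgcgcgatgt

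Across the pathway, most members stood close to level between the libraries. Irs1 was the only member at least 2-fold higher in DSS, 1 of 33 or 3.03%, where 19.3% of all genes counted were, and no member was 2-fold lower, where 20.2% of all genes were. At 1.5-fold, 5 members were higher (Insr, Irs1, Irs2, Pik3r3 and Rps6kb2), which is 15.2% against 28.5% of all genes. At the same fold 3 members were lower (Akt1, Eif4ebp1 and Eif4e), which is 9.09% against 30.9%. With total counts the balance of members turned, with 1 at least 1.5-fold higher and 6 at least 1.5-fold lower, beside 3886 and 6797 of the 17235 genes. The other 25 members, or 75.8%, lay within 1.5-fold, as did 40.6% of all genes. Members are well counted, with 110 counts or more in each library and 1000 or more in both for 30 of 33, and many other genes had fewer. Of 11598 genes that reached 100 counts in control and in DSS, 49.2% lay within 1.5-fold, 12.6% were 2-fold higher and 16.8% were 2-fold lower.

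The median log2 ratio of the members was 0.14, with a range from -0.99 for Eif4ebp1 to 1.62 for Irs1. Against 0, 22 members were above and 11 below with TMM scaling, and 8 above and 25 below with total counts. Against the median of all genes, which does not depend on the scaling, 23 were above and 10 below. Members with the same sign under all 4 scalings tried numbered 8 above 0 and 10 below 0, and the sign of the other 15 rests on the scaling. The counting interval held 0 for Pik3r2, Akt2, Tsc1 and Tsc2.

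**Figure D1:**
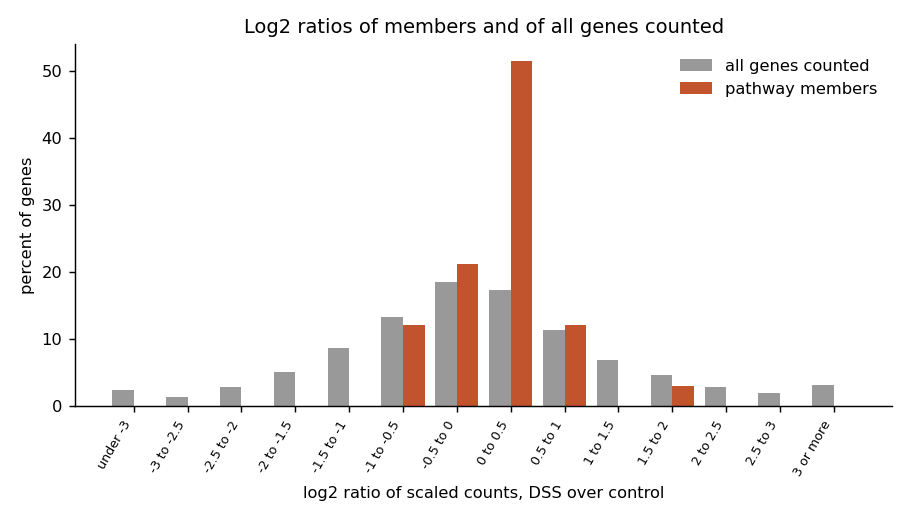
Percent of genes (vertical axis) in each range of the log2 ratio of scaled counts, DSS over control (horizontal axis), for all 17235 genes counted (grey bars) and the 33 members (orange bars). Between 0 and 0.5 lie 51.5% of the members and 17.3% of all genes, and a single member, Irs1, lies past 1 in either direction. The side of 0 rests on TMM scaling, as 25 members lie below 0 with total counts.

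The receptors and adaptors held the highest median of the classes, 0.77. Insr, the insulin receptor, had 4733 counts in control and 6119 in DSS, or 66.1 and 112 CPM, a log2 ratio of 0.76 (0.70 to 0.81). Igf1r, the IGF-1 receptor, went the other way, with 344 and 182 counts and a log2 ratio of -0.53 (-0.80 to -0.27). The signs of both held under all 4 scalings. Within each library, which needs no scaling, the count ratio of Insr to Igf1r went from 13.8 to 33.6, a log2 change of 1.29 (1.02 to 1.56), the largest among the 14 pairs compared. Per kilobase of transcript, Insr made up 94.4% of the RNA of the pair in control and 97.6% in DSS, so Insr was the main receptor transcript of the pair in both libraries.

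Irs1 and Irs2 encode the docking proteins through which these receptors reach PI3K. Irs1 (NCBI gene 16367) had 110 counts in control and 258 in DSS, or 1.54 and 4.72 CPM, a log2 ratio of 1.62 (1.29 to 1.95). Irs2 (NCBI gene 384783) had 3524 and 4605 counts, or 49.2 and 84.2 CPM, a log2 ratio of 0.77 (0.71 to 0.84). Both transcripts were higher in the DSS library under all 4 scalings. Irs1 remained the minor of the pair per kilobase, at 2.11% of their sum in control and 3.73% in DSS, and the log2 change of the ratio of Irs1 to Irs2 was 0.84 (0.51 to 1.19).

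**Figure D2:**
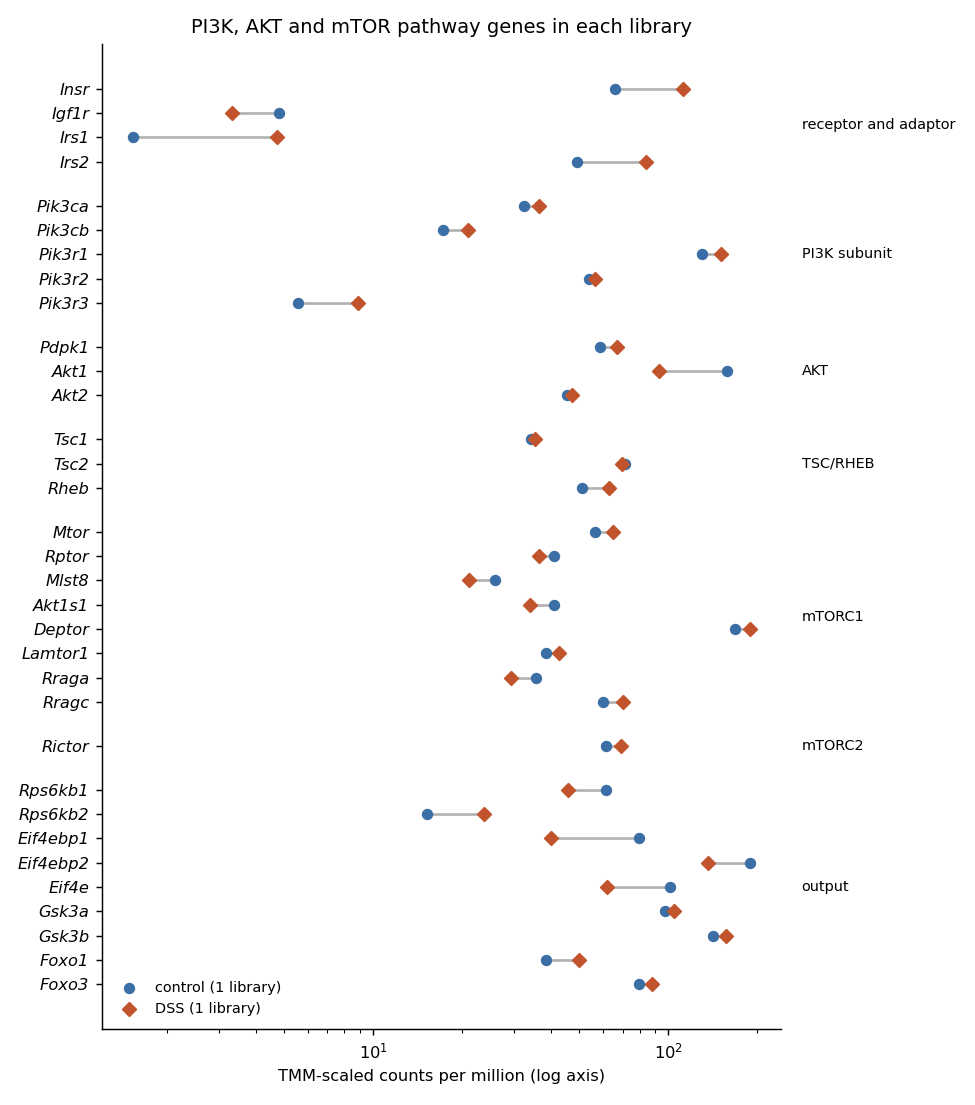
TMM-scaled CPM of each member (horizontal log axis) in the control library (blue circles) and the DSS library (orange diamonds), grouped by class, with 1 library per condition. Insr, Irs1 and Irs2 stand higher in DSS, and Akt1, Eif4ebp1 and Eif4e lower, while most other pairs of points lie close together.

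The PI3K subunits stood nearly level, with a median of 0.21. Pik3ca, the catalytic subunit p110α, had 2320 counts in control and 1992 in DSS (log2 ratio 0.17), and Pik3cb, p110β, had 1232 and 1150 (0.29). The balance of the catalytic pair moved by a log2 value of -0.12, with an interval that held 0 (-0.27 to 0.03). Of the regulatory subunits, which stabilise p110 and bind the adaptors, Pik3r1 had 9326 and 8241 counts (0.21) and Pik3r2 had 3857 and 3087 (0.07). Pik3r3, which encodes the small subunit p55γ, was the exception, with 400 and 485 counts and a log2 ratio of 0.67 (0.47 to 0.86). Its balance to Pik3r1 moved by 0.46 (0.26 to 0.66). The signs of Pik3cb and Pik3r3 held under all 4 scalings, and those of Pik3ca, Pik3r1 and Pik3r2 turned with total counts.

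At the AKT step, the kinase paralogs parted. Akt1 (NCBI gene 11651), the broadly expressed AKT, had 11273 counts in control and 5094 in DSS, or 158 and 93.2 CPM, a log2 ratio of -0.76 (-0.81 to -0.71). Akt2, the paralog best known for insulin-stimulated glucose uptake, had 3256 and 2584 counts, or 45.5 and 47.3 CPM (0.06, -0.02 to 0.13). Akt1 was lower under all 4 scalings, and the sign for Akt2 turned with total counts. The count ratio of Akt1 to Akt2 went from 3.46 to 1.97, a log2 change of -0.81 (-0.90 to -0.72). Per kilobase the ratio went from 5.85 to 3.33, and Akt1 was the more abundant in both libraries. Pdpk1, which encodes PDK1, the kinase that phosphorylates the AKT activation loop, had 4190 and 3673 counts (0.20).

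The TSC and RHEB step had a median of 0.04. Tsc1, the scaffold of the complex, had 2459 counts in control and 1928 in DSS (0.04), and Tsc2, its GTPase-activating subunit, had 5119 and 3816 (-0.04). Both intervals held 0, as did that of their balance, 0.07 (-0.03 to 0.18). Rheb, the GTPase they restrain, had 3662 and 3453 counts, a log2 ratio of 0.30 (0.24 to 0.37) that stayed above 0 under all 4 scalings.

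**Figure D3:**
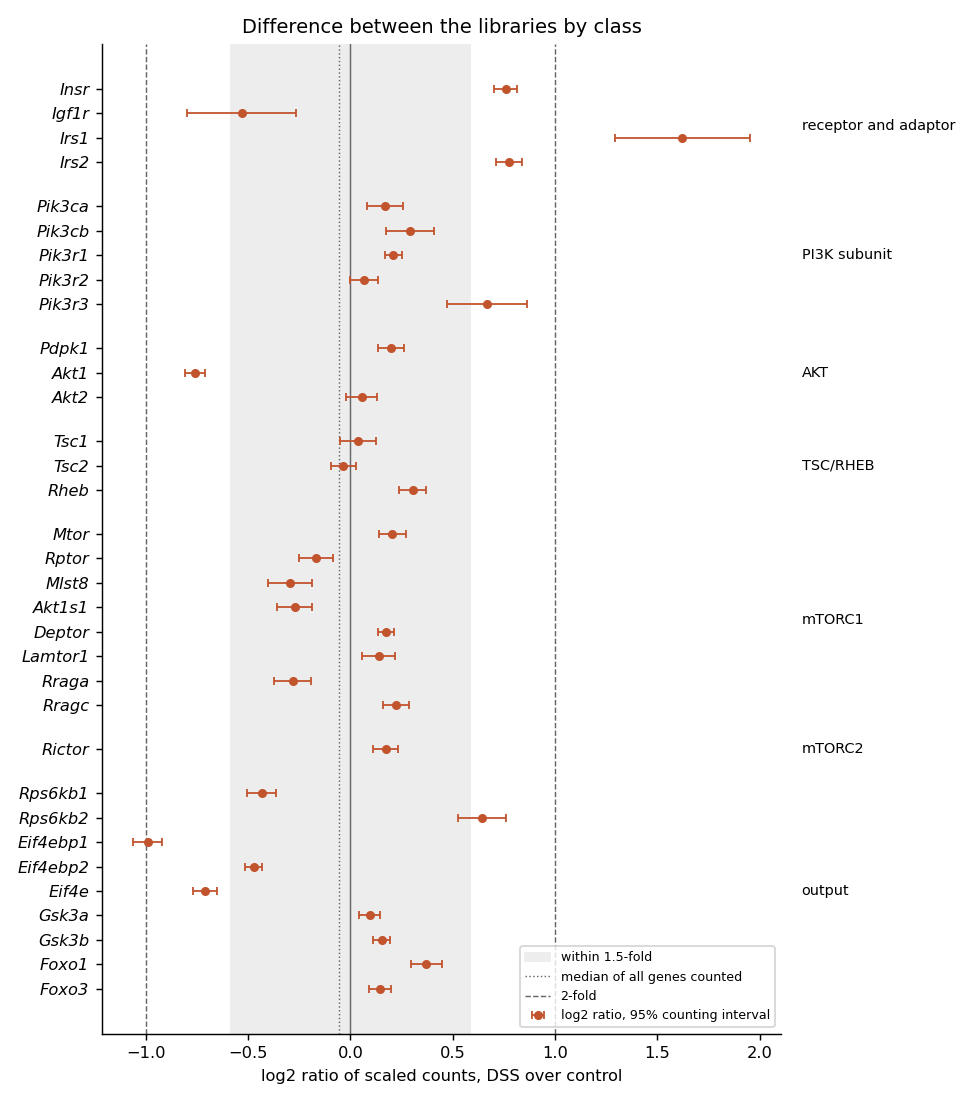
Log2 ratio of scaled counts, DSS over control, of each member (horizontal axis), with its exact 95% counting interval as the bar, by class. The grey band marks 1.5-fold, the dashed lines 2-fold and the dotted line the median of all genes, -0.06. Only Irs1 lies past a 2-fold line, and Eif4ebp1, at -0.99, is the nearest to the other.

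The mTORC1 members lay within a narrow range, from -0.29 to 0.22, with 4 above 0, 4 below and a median of -0.01. The 4 below were lower under all 4 scalings. They were Rptor, the substrate-binding scaffold raptor (2939 counts in control, 2000 in DSS, log2 ratio -0.17), Mlst8, a subunit of both mTOR complexes (1855 and 1156, -0.29), Akt1s1, the inhibitory subunit PRAS40 (2935 and 1857, -0.27), and Rraga, the GTPase RagA (2554 and 1604, -0.28). The 4 above 0 turned below with total counts. They were Mtor, the kinase itself (4033 and 3549, 0.20), Deptor, an inhibitor of both complexes (12005 and 10357, 0.18), Lamtor1, the lipidated anchor of Ragulator on the lysosome (2762 and 2322, 0.14), and Rragc, the GTPase RagC (4316 and 3845, 0.22).

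RagA and RagC work as a heterodimer, and the balance of Rraga to Rragc moved by -0.50 (-0.62 to -0.39). Rictor, the scaffold that defines mTORC2, had 4390 and 3778 counts (0.17, below 0 with total counts). The balance of Rptor to Rictor, the scaffolds of the alternative mTOR complexes, moved by -0.34 (-0.44 to -0.23), and this within-library value does not rest on a scaling factor.

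The outputs spread widest below 0, with the members of the cap-binding branch at the low end. Eif4ebp1 (NCBI gene 13685), which encodes a translation repressor that mTORC1 inactivates, had 5712 counts in control and 2196 in DSS, or 79.8 and 40.2 CPM, a log2 ratio of -0.99 (-1.06 to -0.92). Its paralog Eif4ebp2 had 13566 and 7472 counts (-0.47, -0.51 to -0.43). Eif4e, the cap-binding protein they hold, had 7274 and 3398 counts (-0.71, -0.77 to -0.65). All 3 were lower under the 4 scalings, and with total counts Eif4ebp1 and Akt1 were past 2-fold. The balance of repressor to target, Eif4ebp1 to Eif4e, moved by only -0.28 (-0.37 to -0.19), and that of Eif4ebp1 to Eif4ebp2 by -0.52 (-0.60 to -0.44).

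The S6 kinases went opposite ways. Rps6kb1, the S6 kinase of most studies, had 4408 counts in control and 2493 in DSS, a log2 ratio of -0.43 (-0.51 to -0.36), and Rps6kb2 had 1087 and 1298, a log2 ratio of 0.64 (0.53 to 0.76). Both signs held under all 4 scalings. Their count ratio went from 4.06 to 1.92, a log2 change of -1.08 (-1.22 to -0.94), and this pair and that of Insr to Igf1r were the 2 pairs with a log2 change of 1 or more.

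Targets that AKT phosphorylates directly differed less. Gsk3a had 7000 and 5709 counts (0.09) and Gsk3b, the paralog best known from WNT signaling, 10112 and 8585 (0.15), and their balance moved by -0.06 with an interval that held 0 (-0.12 to 0.01). Foxo1, a transcription factor that AKT keeps out of the nucleus, had 2753 and 2720 counts and a log2 ratio of 0.37 (0.29 to 0.45) that held its sign under all 4 scalings. Foxo3 had 5682 and 4799 counts (0.14), and the balance of Foxo1 to Foxo3 moved by 0.23 (0.13 to 0.32).

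**Figure D4:**
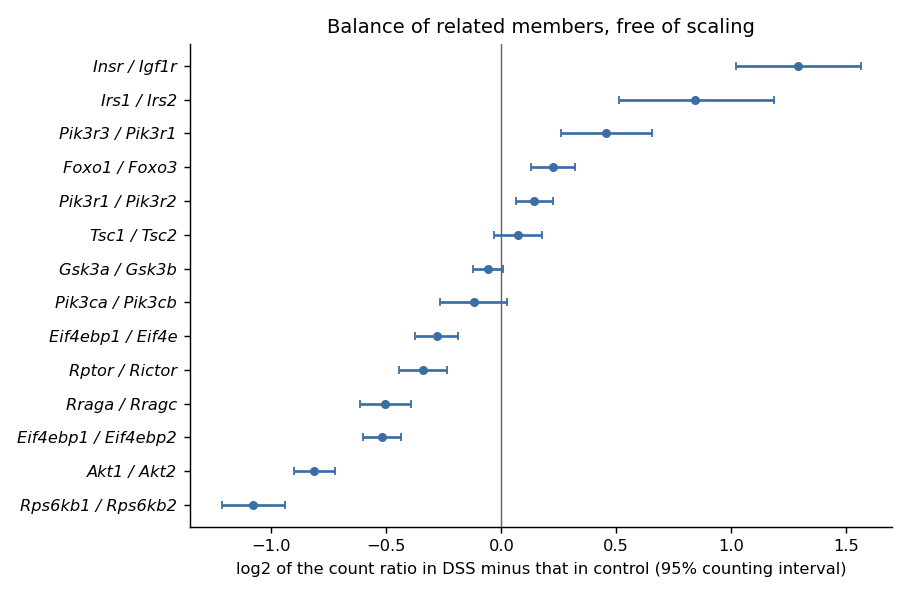
Log2 of the count ratio of a pair of members in DSS minus the same in control (horizontal axis), with its exact 95% counting interval as the bar, for the 14 pairs with counts. Insr over Igf1r is highest at 1.29 and Rps6kb1 over Rps6kb2 lowest at -1.08, and the intervals of 3 pairs (Tsc1 over Tsc2, Gsk3a over Gsk3b, Pik3ca over Pik3cb) hold 0.

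The other genes of the pathway, in 9 lists beside the members, were read by the same folds. Of 142 genes, 131 reached 10 counts in a library, and 23 of these were 2-fold higher in DSS and 23 were 2-fold lower, 17.6% each way, beside 19.3% and 20.2% of all genes. Those shares of all genes are the background for the counts of every list below. Values are given for up to 3 genes of each list, those with the largest log2 ratio either way that reached 50 counts in a library.

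Among 8 genes of insulin and IGF ligands, their binding proteins and other receptors, 3 were 2-fold higher and 2 were 2-fold lower. Of the 3, 1 had only 10 counts in control and 16 in DSS, with an interval that held 0. The median log2 ratio was -0.13, or 0.08 with no count minimum. Igfbp4, a secreted protein that binds IGFs, had 6449 counts in control and 399 in DSS (log2 ratio -3.63), while Igfbp3, a carrier of the same family, had 68 and 176 (1.76) and the orphan receptor gene Insrr 29 and 67 (1.60). Ins1, Ins2, Igf1 and Igfbp1 were not analysed here. Among 8 further adaptors, with a median of -0.12, only Sh2b2 passed 2-fold, with 96 and 10 counts (-2.87), followed by Cblb, a ubiquitin ligase (1300 and 1441, 0.54), and Shc1, an adaptor that links receptors to RAS (5484 and 2888, -0.54).

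Among the related kinases, Sgk2 had 28 counts in control and 712 in DSS (5.06), the highest log2 ratio in the 9 lists, and Sgk1 had 316 and 1994 (3.05). Both encode kinases close to AKT that PDK1 and, for SGK1, mTORC2 activate. Pik3ap1, an adaptor that brings PI3K to immune receptors, had 1280 and 148 counts (-2.72). In this list 3 of 12 genes were 2-fold higher and 3 were 2-fold lower, and the median was -0.10, or 0.07 with a minimum of 10 counts in both libraries.

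Of 19 phosphatases and other inhibitors, 4 were 2-fold higher and 6 were 2-fold lower, with a median of -0.17. The largest ratios were those of Grb10 (115 counts in control, 10 in DSS, -3.14) and Grb14 (292 and 43, -2.38), adaptors that inhibit the insulin receptor, and of Ddit4l, an inhibitor of mTORC1 (427 and 81, -2.01). The phosphatases that dephosphorylate AKT differed in direction, with 2341 and 808 counts for Phlpp1 (-1.15) and 1319 and 3403 for Phlpp2 (1.76). Phlpp1 and Phlpp2 fall outside the naming rule and were chosen after their values were seen.

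The 27 genes of amino acid sensing included 2 that were 2-fold higher, 1 that was 2-fold lower, with a median of 0.25, which was -0.01 with total counts. Castor2 had 574 counts in control and 1431 in DSS (1.71), and Lars, the leucyl-tRNA synthetase, had 9633 and 3491 (-1.08). Among 8 other genes of the mTOR and TSC complexes and their assembly, Rhebl1, a paralog of Rheb, had 137 and 336 counts (1.68), while Telo2 and Tti1, of the complex that helps to assemble mTOR, had 1500 and 330 (-1.80) and 1815 and 741 (-0.90). In this list 1 gene was 2-fold higher and 1 was 2-fold lower, and the median of 0.04 was -0.22 with total counts.

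The list of translation factors downstream of mTORC1, which also holds several kinases, lay mostly below 0. Like the cap-binding members, 14 of its 19 genes were below, with a median of -0.40 where that of all genes was -0.06. No gene of this list was 2-fold higher and 2 (10.5%) were 2-fold lower, beside 19.3% and 20.2% of all genes counted, so fewer passed 2-fold. Rps6, the ribosomal protein that S6 kinases phosphorylate, had 119263 counts in control and 32233 in DSS (-1.50), Eif4b, a helicase cofactor, 75099 and 27918 (-1.04), and Eif4a1, the helicase, 56052 and 21619 (-0.99). Ribosomal protein and translation factor genes have near-identical processed copies in the genome, so counts of Rps6 and Eif4a1 are uncertain where reads could be split between copies.

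The lists of known transcriptional targets had medians on opposite sides of 0. Of 19 genes that FOXO factors are known to induce, 8 (42.1%) were 2-fold higher in DSS and 1 (5.26%) was 2-fold lower. The shares of all genes counted were 19.3% and 20.2%. The median of the list was 0.52, or 0.27 with total counts. Pck1, an enzyme of gluconeogenesis, had 74 counts in control and 1248 in DSS (4.46), Fbxo32, a ubiquitin ligase of muscle atrophy, 17 and 120 (3.21), and G6pc, the last enzyme of glucose release, 236 and 980 (2.44). Pck1 and G6pc are also enzymes of mature enterocytes. The 7 epithelial markers ranged from -1.35 for Cdx2 to 3.99 for Krt20. Vil1 was at 1.25 and Krt8 at 0.84, and Epcam (0.03), Krt18 (0.04) and Cdh1 (-0.03) were near 0. The part of such shifts in the values of the whole list was not tested.

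The list of ATF4 targets, of which mTORC1 is known to raise some, held 16 genes, with Atf4 itself counted among them. Of these, 2 (12.5%) were 2-fold higher and 7 (43.8%) were 2-fold lower, beside 19.3% and 20.2% of all genes counted. The median was -0.84, or -1.10 with total counts. Phgdh, the entry enzyme of serine synthesis, had 11938 counts in control and 716 in DSS (-3.67), and Pycr1, an enzyme of proline synthesis, 2217 and 358 (-2.24). Slc7a11, the cystine transporter, went the other way, with 1614 and 5281 counts (2.10). Ddit3, the other gene 2-fold higher, had 1977 and 4085 counts (1.44), and Atf4 had 24420 and 27181 (0.54). Both are named outside the rule, after their values were seen. These values stand beside the lower stem cell markers and the mixed epithelial markers of the DSS library, whose part in them was not tested.

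**Figure D5:**
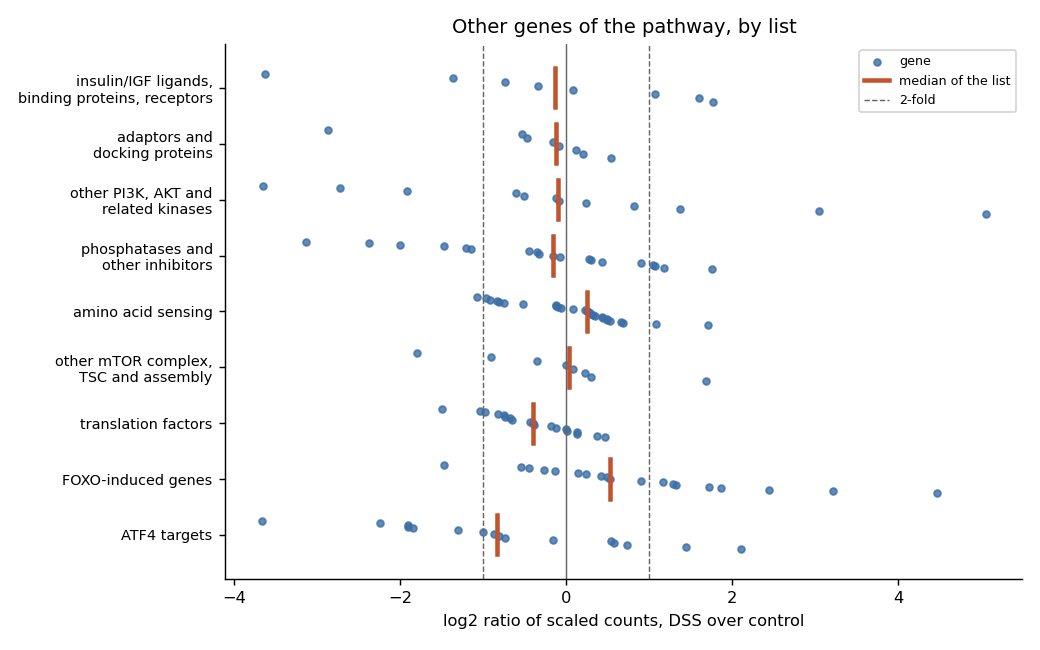
Log2 ratio of scaled counts, DSS over control (horizontal axis), of each gene (blue points) in the 9 lists of other pathway genes, with the median of each list as an orange bar and dashed lines at 2-fold. The medians run from -0.84 for ATF4 targets to 0.52 for genes that FOXO factors are known to induce, and Sgk2, at 5.06, is the highest point.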

How the data were processed

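Gene expression was measured by mRNA-seq with a stranded kit in 1 control and 1 DSS-treated organoid culture. The deposited values are whole-number read counts that the authors made for each gene and did not normalize. Files of single samples carry FPKM in their names, yet their values equal these counts for all 19294 genes. HISAT2 and StringTie are listed in the submitters' processing notes. Their versions, the genome build, the counting program and its strand setting are not given in the sources used here, so reads of overlapping or antisense genes may not be separated. Genes without a count in control or DSS are not listed.

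Counts were scaled with TMM factors (1.09 for control, 0.915 for DSS) in edgeR 4.0.16 under R 4.3.3. Intervals are exact Clopper-Pearson 95% intervals of the share of the DSS count, and for pairs the exact conditional interval of the odds ratio of the 4 counts. Both cover counting error only. Levels per kilobase used the longest GENCODE vM21 transcript matched to RefSeq. Promoter windows came from RefSeq (GRCm38.p6), for 29 of 33 members. Deptor, Eif4ebp1, Insr and Rps6kb2 were not matched.

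All members are named, and from each other list the 3 genes with the largest log2 ratio in either direction that reached 50 counts in a library, of which 1 is not reported here. The members and lists were chosen with earlier results of these data known. As alternatives, scaling by total counts, by upper quartile factors and by the size factors of DESeq2 1.42.0 was tried, with other count minimums, a prior count of 2, thinning, class means and median transcript lengths. Centring on the median of all genes and a minimum of 100 counts in both libraries were added after the data were seen. The computation was tested on simulated data. Python 3.11.15, numpy 2.4.6, scipy 1.17.1, pandas 2.3.3 and matplotlib 3.10.9 were used.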

Additional observations from a re-analysis of the deposited data

How the results depend on the processing

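No member past 1.5-fold and no pair with a log2 change of 1 or more changed sign under the alternatives. With total counts, the median of all members was -0.11, and the class medians were 0.51 for receptors and adaptors, -0.046 for PI3K subunits, -0.20 for AKT, -0.22 for TSC and RHEB, -0.27 for mTORC1, -0.084 for mTORC2 and -0.16 for outputs. At that setting 2 members were 2-fold lower, 1 was 1.5-fold higher and 6 were 1.5-fold lower, beside 4508, 3886 and 6797 of all 17235 genes. With upper quartile factors, the median of all members was 0.24, and the class medians were in the same order 0.86, 0.30, 0.15, 0.13, 0.076, 0.26 and 0.18. With the mean of a class in place of its median, receptors and adaptors were at 0.66, PI3K subunits at 0.28, AKT at -0.17 and outputs at -0.13. The shifts under other scalings follow from the factors, which add the same value to each gene. Of 198 alternative values of the members' log2 ratios, 133 moved no further than from the middle to an end of the counting interval, and 65 moved further. All 28 of the pairs' values stayed within that distance of their own intervals. They came from thinning and the prior count alone, because pairs need no scaling. A prior count of 2 and thinning changed no sign, and Irs1 moved most, to 1.60 and 1.55. With the median transcript length, 6 of 14 ratios per kilobase moved, so levels per kilobase rest on the gene models. No paired analysis was possible because each condition has 1 library, and no library could be left out. Depth limits the precision of Irs1, Igf1r and Pik3r3 most, the members under 1000 counts.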
